A study of Mus musculus with 4 samples.

Results

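The keratins described here are 7 genes, *Krt8*, *Krt7*, *Krt18*, *Krt19*, *Krt20*, *Krt23* and *Krt10*, chosen by gene symbol from the 54078 features of a table of kidney expression, with 1 feature for each symbol. Each of the 4 libraries was made from kidney RNA at day 3 after both renal pedicles of male adult mice had been clamped for 30 min (bilateral ischemia-reperfusion, I/R). The KO group carried *Apela* flox/flox alleles and Cre under the *Ksp*-cadherin promoter, which is active in renal tubular epithelial cells, and the WT group consisted of *Apela* flox/flox littermates without Cre. Both groups therefore carried the floxed alleles and both were injured. The sample labels give the strain as C57BL/6 x 129S4/SvJae where the study's methods give C57BL/6, and each of the 2 libraries of a group is a pool of 3 mice, so n = 2 counts pools and not animals. No uninjured library was analysed here, so how far injury itself raised a keratin cannot be read from these values.

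Keratins are the intermediate filament proteins of epithelial cells. A filament is built from pairs of chains, 1 acidic type I chain with 1 basic type II chain, and single-layered epithelia use a small set of them, with K8 and K18 as the first pair. In the kidney, K8 and K18 are found in tubular epithelium, K7 and K19 are known from the collecting duct and other distal epithelium and from urothelium, and K20 is best known from intestinal epithelium and urothelial umbrella cells. Several of these mRNAs are used as markers of injured tubular cells. K10, the partner of K1 in the upper layers of the epidermis, is not a keratin of single-layered epithelium, and K23 is a less studied type I keratin. The label "simple epithelial" thus covers 5 of the 7 genes by their known use, and *Krt10* and *Krt23* are described here by symbol.

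The type II members lie on chromosome 15 of GRCm38, *Krt8* (ENSMUSG00000049382) from 101996698 to 102004482 on the minus strand and *Krt7* (ENSMUSG00000023039) from 101411043 to 101430313 on the plus strand. *Krt18* (ENSMUSG00000023043), a type I gene, lies beside *Krt8*, from 102028180 to 102032027 on the plus strand. The other type I members lie on the minus strand of chromosome 11. These are *Krt10* (ENSMUSG00000019761) from 99385254 to 99389364, *Krt20* (ENSMUSG00000035775) from 99428403 to 99438150, *Krt23* (ENSMUSG00000006777) from 99477974 to 99493137 and *Krt19* (ENSMUSG00000020911) from 100140810 to 100148665. All 7 had the same coordinates in the GENCODE M21 annotation of that build. Their main coding transcripts have 6 exons (*Krt19*) to 9 exons (*Krt7* and *Krt8*) and encode between 403 residues (*Krt19*) and 561 residues (*Krt10*).

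RefSeq promoter sequences of GRCm38.p6 were matched for 6 of the 7 members, with *Krt19* unmatched. The sequence of *Krt20* is shown because this gene had the largest difference between the groups, and the shorter windows of *Krt10*, *Krt23* and *Krt18* show the same stretch, 45 to 16 bases before the RefSeq start site, in other type I members. Capitals mark TATAAA, the core promoter element known as the TATA box. The *Krt20* sequence is chr11:99438154-99438403 on the minus strand, the 250 bases before the RefSeq start, and the others are chr11:99389380-99389409 (minus strand), chr11:99493136-99493165 (minus strand) and chr15:102028171-102028200 (plus strand).
Krt20: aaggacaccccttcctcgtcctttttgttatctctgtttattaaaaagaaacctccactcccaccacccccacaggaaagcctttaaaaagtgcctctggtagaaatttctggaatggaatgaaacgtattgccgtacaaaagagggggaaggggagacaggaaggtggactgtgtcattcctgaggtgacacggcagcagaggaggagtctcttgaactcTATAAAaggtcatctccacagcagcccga
Krt10: gagacacgccctctcagtaTATAAAggctc
Krt23: ccacagcaaagggcataaaaccatctcaag
Krt18: gaggtccctacctcctcccgcggcgatata

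The letters TATAAA, searched on both strands in the 250 bases before the start, were present in 2 of the 6 promoters, those of *Krt20* (29 to 24 bases before the start) and *Krt10* (26 to 21 bases before it). Of all 32851 RefSeq promoters searched in the same way, 12.4% held them. The motif TGANTCA of AP-1 factors was in 0 of the 6 and in 6.75% of all promoters. GGGCGG, the motif of Sp1-like factors, was in 1 of the 6, with 4 copies in that of *Krt7*, and in 32.7% of all, and CCAAT was in 1, that of *Krt10*, and in 33.8% of all. A match is a description of letters and not a binding site. The RefSeq start lies 140 bases inside the gene of the deposited table for *Krt8*, 36 bases for *Krt18*, 17 bases for *Krt23* and 1360 bases for *Krt7*, so the windows of these genes are not windows before the start used for the expression values.

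The deposited values are FPKM, fragments scaled by gene length and library total, and whole reads could be recovered from them. Reads on genes were between 16045724 and 16927742 per library. The targeted gene *Apela* stood at 5.27 and 4.57 in the WT pools against 0.536 and 0.245 in the KO pools, from 85 and 79 reads and 9 and 4 reads (log2 fold change -2.62; limma, adjusted p = 0.466). The total by which FPKM were scaled was above the reads on genes in WT replicate 2 (17203609 against 16045724) and below them in the other 3 libraries, which bears on every level compared across libraries. The text accompanying the series names adipose tissue, while title and sample labels name the kidney. The summed FPKM of 12 proximal tubule markers was 6031 to 11127 over the libraries and *Umod*, the uromodulin of the thick ascending limb, stood at 788 to 1133.

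Across the 4 pools, *Krt8* was the most abundant keratin. *Krt18* came next in the WT pools and *Krt20* in the KO pools, by a narrow margin in KO replicate 2. *Krt20* was the member that differed most between the groups, with 1.67 times the mean FPKM in the KO pools. *Krt8*, *Krt18*, *Krt19* and *Krt23* had mean levels 1.09 to 1.37 times those of WT, and *Krt7* and *Krt10* had mean levels of 1.04 and 0.941 times those of WT. None of these differences passed the test across all genes. In RNA of whole kidney, a different number of cells of a type and a different amount of RNA per cell cannot be told apart. The members were compared with limma on log2(FPKM + 0.5), Benjamini-Hochberg adjusted over 15414 genes whose mean FPKM reached 0.5, a filter that all 7 members passed. With an adjusted p under 0.05, 0 of the 7 members were called, where 0% of all genes were, and the smallest adjusted p of any gene was 0.466. The count over all genes was also 0 with voom weights on the recovered reads, and 974 genes had an unadjusted p under 0.05. At the adjusted threshold the study did report differentially expressed genes between these groups, from its own analysis, whose model its methods do not name. At an unadjusted p under 0.05, 1 member was higher in KO, *Krt20*, where 3.29% of all genes were, and 0 were lower, where 3.03% of all genes were. In the same fit the median log2 fold change was 0.19 over the 7 members and 0.0071 over all genes tested. Leaving out WT replicate 1 brought the members' median to 0.074, leaving out WT replicate 2 or KO replicate 1 to 0.30 and leaving out KO replicate 2 to 0.11. It was 0.086 with values rescaled to a common sum and 0.090 with quantile normalization.

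For 5 of the 7 members both KO pools lay above both WT pools, where 19.7% of all genes did, and for 0 members both lay below, where 18.1% did. That count depends on the scaling between libraries. With FPKM rescaled to a common sum (TPM), it was 2 members, *Krt20* and *Krt23*, with 10.8% of all genes above and 25.4% below. With quantile normalization it was 3 members, *Krt19*, *Krt20* and *Krt23*, with 18.2% of all genes above. With 2 pools in each group, the smallest two-sided p that an exact permutation test allows is 0.33, and each of the 5 genes had it.

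**Figure D1:**
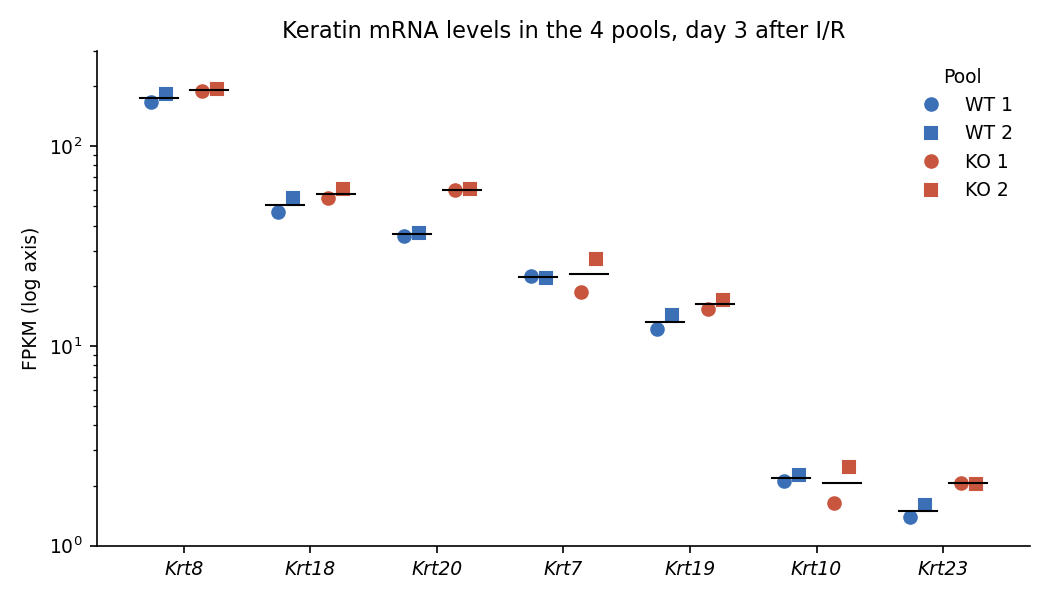
FPKM of the 7 keratins on a log axis, with circles for replicate 1 and squares for replicate 2 of WT (blue) and KO (red) and a black line at each group mean. The KO pools of *Krt20*, at 60.0 and 61.0, sit well above the WT pools at 35.6 and 36.8, while the pools of *Krt7* and *Krt10* overlap.

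*Krt8*, the type II partner of *Krt18* and the basic chain of most single-layered epithelia, had an FPKM of 166 and 182 in the WT pools against 188 and 193 in the KO pools, from 5229 to 6164 reads. The KO pools lay above the WT pools by 5.77 FPKM at the nearest, less than the distance between the WT pools. Its mean was 174 ± 11.5 in WT against 191 ± 3.35 in KO (SD, n = 2 pools each). The log2 fold change was 0.13 (95% interval -0.26 to 0.52; limma, adjusted p = 0.883), and with quantile normalization it was -0.023. It was 0.029 with TPM, and leaving out WT replicate 1 or WT replicate 2 gave 0.063 or 0.20. A processed pseudogene, *Krt8-ps* on chromosome 7, shares 314 of its 846 windows of 100 bases with *Krt8*. It was listed with 20 to 25 reads per library, and how reads matching both were counted is not given in the sources used here.

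*Krt18*, the type I chain that pairs with K8, had an FPKM of 46.8 and 54.8 in the WT pools against 54.8 and 60.6 in the KO pools. The upper WT pool and the lower KO pool thus touched, with a gap of 0.060 FPKM. The means were 50.8 ± 5.63 in WT against 57.7 ± 4.11 in KO (SD, n = 2 pools each), a log2 fold change of 0.19 (95% interval -0.19 to 0.56; limma, adjusted p = 0.837). Leaving out WT replicate 1 gave 0.074, leaving out WT replicate 2 gave 0.30 and leaving out KO replicate 2 gave 0.11, while TPM gave 0.086 and quantile normalization 0.090. The pair kept close proportions. *Krt8* stood at 3.55 and 3.33 times *Krt18* in the WT pools and at 3.43 and 3.18 times in the KO pools, and these ratios overlapped between the groups (exact permutation test, two-sided p = 0.667).

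*Krt19*, the smallest keratin and one that lacks most of the tail domain, had an FPKM of 12.2 and 14.3 in the WT pools against 15.3 and 17.0 in the KO pools. The order of the pools was that of *Krt18*, with WT replicate 1 lowest and KO replicate 2 highest. The means were 13.2 ± 1.49 in WT against 16.2 ± 1.15 in KO (SD, n = 2 pools each), and the log2 fold change was 0.28 (95% interval -0.07 to 0.63; limma, adjusted p = 0.797). Leaving out WT replicate 1 lowered it to 0.17 and leaving out WT replicate 2 raised it to 0.39, and with TPM it was 0.19. Relative to *Krt18*, *Krt19* stood at 0.260 and 0.261 in the WT pools and at 0.280 in each KO pool. The replicates differed by less than counting error in this ratio, in which the lowest *Krt19* value rests on 363 reads with a counting error of 5.25%. The step from 0.261 to 0.280 between the groups is of the same order as that error and was not tested.

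*Krt7*, the second type II member, had an FPKM of 22.3 and 21.8 in the WT pools against 18.7 and 27.2 in the KO pools, so that the KO pools lay on both sides of the WT pools. The WT pools were 1.02 times apart and the KO pools 1.46 times, and the latter gap was 13.5 times its counting error, the largest such multiple among the 7 members. The means were 22.0 ± 0.330 in WT against 23.0 ± 6.04 in KO (SD, n = 2 pools each). The log2 fold change of 0.036 (95% interval -0.50 to 0.57; limma, adjusted p = 0.981) became 0.30 when KO replicate 1 was left out and -0.23 when KO replicate 2 was. An annotated antisense gene, *AC157583.2*, overlaps *Krt7* with 15 to 20 reads per library, and without strand in the library such reads cannot be told apart. The KO pools ranked alike in *Krt10* but the other way round in the collecting duct marker *Aqp2*, a water channel, with 289 and 204 in KO replicates 1 and 2. The level of *Krt7* against other keratins depends on the length used. The table gives 7049 bases, which take in 5 annotated transcripts, and the main coding transcript has 4094 bases, with which its FPKM would be 1.72 times as high, at 38.3 and 37.5 in WT and 32.2 and 46.9 in KO.

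*Krt20*, a type I chain, had an FPKM of 35.6 and 36.8 in the WT pools against 60.0 and 61.0 in the KO pools, from 1101 and 1221 reads and from 1933 and 1910 reads. The replicates of each group lay within 1.04 times of each other, less than their counting error, and the gap between the groups was 23.1 FPKM. The means were 36.2 ± 0.906 in WT against 60.5 ± 0.760 in KO (SD, n = 2 pools each). The log2 fold change was 0.73 (standard error 0.11; 95% interval 0.44 to 1.03, which is 1.36 to 2.04 times on the scale of FPKM + 0.5). Its unadjusted p of 0.00162 ranked 43 among the 15414 genes, and limma gave an adjusted p of 0.545. By size, 284 of the 13403 genes whose mean FPKM reached 1 had a larger positive log2 fold change. Under all 13 alternatives run, the log2 fold change of *Krt20* stayed between 0.64 and 0.76, and its adjusted p ranged from 0.33 to 0.992.

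*Krt23* was low, with an FPKM of 1.39 and 1.60 in the WT pools against 2.06 and 2.05 in the KO pools, from 35 to 54 reads. The KO pools lay above the WT pools by 0.449 FPKM, and the counting error of the lowest pool alone was 16.9%. The log2 fold change was 0.36 (95% interval -0.05 to 0.77; limma, adjusted p = 0.797). *Krt10* had an FPKM of 2.12 and 2.25 in the WT pools against 1.64 and 2.48 in the KO pools, so that the groups overlapped. Its log2 fold change of -0.09 (95% interval -0.64 to 0.46; limma, adjusted p = 0.948) became 0.15 without KO replicate 1, -0.33 without KO replicate 2 and -0.20 with TPM. *Krt1*, which codes for the epidermal partner of K10, had 1 read in each WT pool and 0 in each KO pool, below the limit of 3 reads taken as detection.

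**Figure D2:**
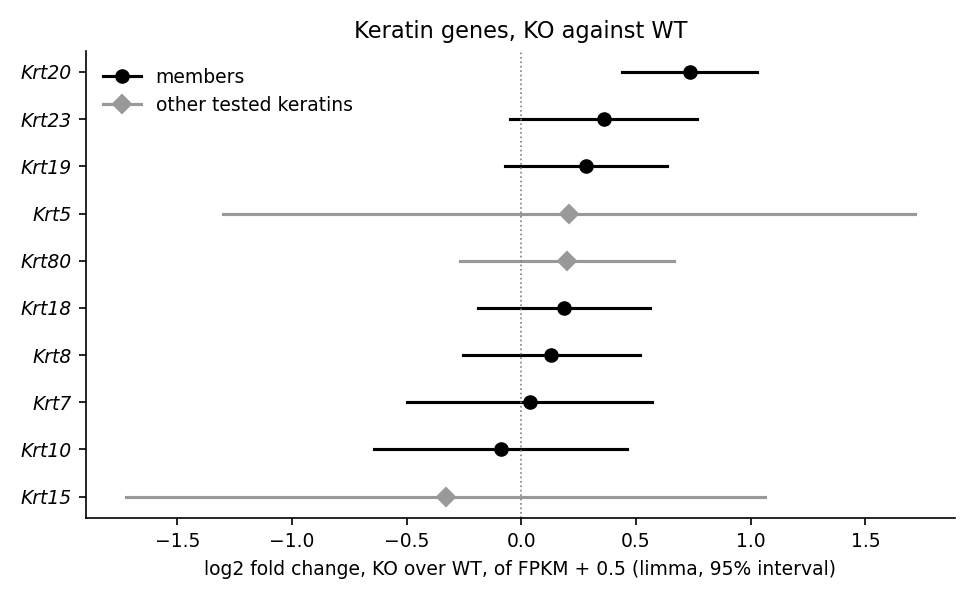
Log2 fold change of the KO over the WT pools for the 10 keratin genes that passed the filter, with 95% intervals from limma, members in black circles and other keratins in grey diamonds. The interval of *Krt20* alone, 0.44 to 1.03, leaves out 0, without adjustment for the number of genes tested.

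In the order of levels, *Krt8* stood above every other member in each pool. In the WT pools *Krt18* (46.8 and 54.8) stood above *Krt20* (35.6 and 36.8), and in the KO pools their ranges, 54.8 to 60.6 and 60.0 to 61.0, met. *Krt20* stood at 0.760 and 0.672 times *Krt18* in the WT pools and at 1.09 and 1.01 times in the KO pools. *Krt7* came next on the deposited length and *Krt19* after it, in every pool. *Krt10* and *Krt23* were lowest in every pool. *Krt10* stood above *Krt23* in both WT pools and in KO replicate 2, and below it in KO replicate 1.

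The summed FPKM of the 7 members was 286 and 314 in the WT pools against 341 and 363 in the KO pools. As TPM it was 769 and 959 in WT and 925 and 955 in KO, so that the groups overlapped and WT replicate 2 was highest. *Krt20* made up 12.4% and 11.7% of it in WT and 17.6% and 16.8% in KO. The share of *Krt8* was 58.0% and 58.1% in WT and 55.2% and 53.1% in KO. Since filaments need both types, the balance of type II (*Krt7* and *Krt8*) to type I mRNA (the other 5 members) was compared. The type I sum was 98.0 and 110 in WT and 134 and 143 in KO, and the type II sum 188 and 204 in WT and 207 and 220 in KO. As TPM the type I sum was 263 and 335 in WT and 363 and 376 in KO, and the type II sum, at 506 and 624 in WT and 561 and 578 in KO, overlapped between the groups.

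The ratio of type II to type I was 1.92 and 1.86 in the WT pools against 1.55 and 1.54 in the KO pools, a difference of -0.349 in which the groups did not overlap (exact permutation test, two-sided p = 0.33, the smallest possible). It was 3.02 and 2.80 in WT and 2.80 and 2.68 in KO when *Krt20* was left out of the sum. The difference without *Krt20* was -0.167, and the upper KO pool and the lower WT pool were then equal to 3 digits. With the lengths of the coding transcripts the ratio was 2.04 and 1.96 in WT and 1.61 and 1.64 in KO. A ratio within a library does not depend on the factor by which that library was scaled.

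**Figure D3:**
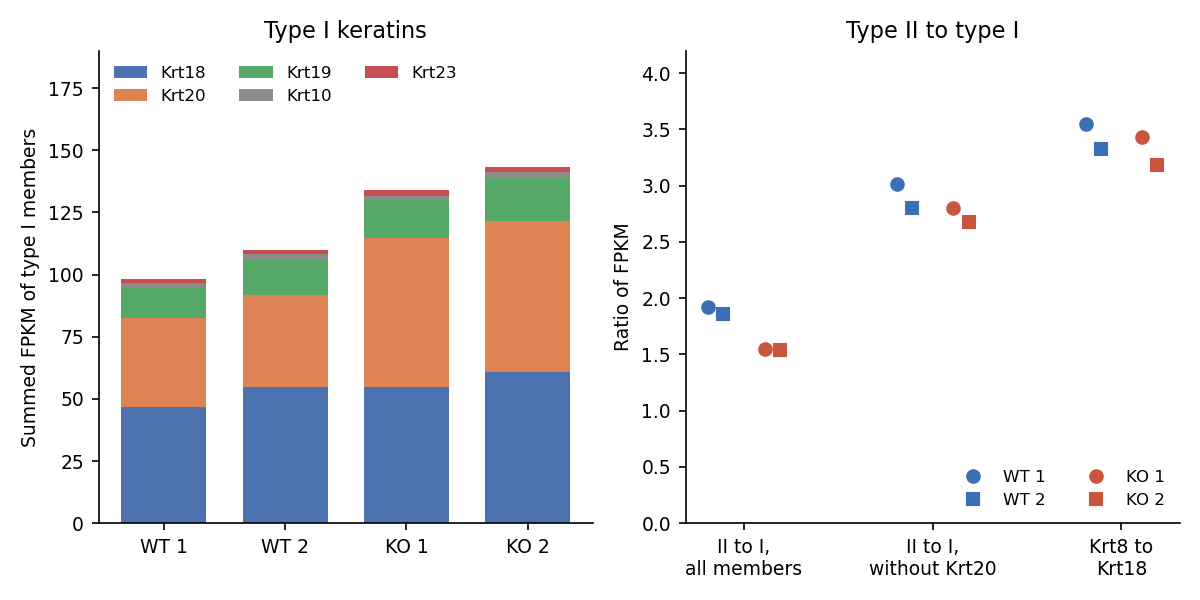
Left, summed FPKM of the 5 type I members in each pool, stacked by gene. Right, ratio of type II to type I FPKM with all members, without *Krt20* and for *Krt8* to *Krt18* alone, with circles and squares for replicates 1 and 2. The orange *Krt20* segment grows from 35.6 and 36.8 in WT to 60.0 and 61.0 in KO, and the ratio over all members drops from 1.92 and 1.86 to 1.55 and 1.54.

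The table holds 54 keratin genes, 27 of type I, 26 of type II and *Krt222*. Of these 22 had no read in any library, 15 had at most 3 reads in every library, 7 had more but stayed under the filter, and 10 were tested. The 7 members carried 97.9% to 99.0% of all keratin FPKM. The other tested keratins were *Krt15* and *Krt5*, of the basal layer of stratified epithelium, and *Krt80*. *Krt80* had an FPKM of 1.32 and 1.41 in WT and 1.47 and 1.83 in KO. *Krt5* was at 0.510 and 0.503 in WT and at 1.52 and 0.168 in KO, and *Krt15* at 2.11 and 1.88 in WT and at 2.88 and 0.662 in KO. The KO pools of *Krt5* and *Krt15* stood apart in the same direction, with KO replicate 1 above and KO replicate 2 below both WT pools. *Krt6a* had no read, and *Krt14*, the usual partner of *Krt5*, had at most 12 reads in a pool.

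The cell types that could add keratin mRNA were followed by their markers. The summed FPKM of 11 collecting duct principal cell markers was 373 to 536 in WT and 471 to 560 in KO, and 10 of them had over 3 reads in every library. That of 10 urothelium markers was 4.66 to 9.93 in WT and 5.38 to 7.70 in KO, with 6 of them over 3 reads in every library. The sum of 14 stratified epidermis markers was 5.25 to 5.35 in WT and 3.34 to 7.21 in KO, with 2 of them, *Dsg3* and *Krt6a*, at 0, and that of 6 mesothelium markers 19.8 to 26.8 and 22.7 to 27.8. Each of these sums overlapped between the groups. The epidermis list holds keratins, *Krt5* and *Krt15* among them, and the urothelium list holds *Krt5*. Those sums are therefore not separate from the keratin values given above. Of the urothelium markers, *Psca* had the highest level, at 2.75 and 0.811 in WT and 2.85 and 2.15 in KO. The uroplakins were low, *Upk1a* at 1.23 and 0.900 in WT and 1.05 and 0.607 in KO and *Upk3a* at 1.59 and 0.691 in WT and 0.820 and 0.169 in KO.

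No marker of any of these lists passed the adjusted threshold. Of 10 tested principal cell markers 1, *Tfcp2l1*, was higher in each KO pool than in either WT pool, where 19.7% of all genes were. The 2 that were lower, *Gata3* and *Hsd11b2*, are a share near the 18.1% of all genes. Of 11 tested proximal tubule markers, 3 were lower in KO at an unadjusted p under 0.05, where 3.03% of all genes were. These were *Gatm*, *Slc5a2* and *Lrp2*. Of the 11, 6 had both KO pools below both WT pools, where 18.1% of all genes did. The 1 that had them above, where 19.7% did, was *Slc22a6*, at 233 and 141 in WT and 236 and 383 in KO. The median log2 fold change of the 11 was -0.38. *Lrp2*, the endocytic receptor megalin, was at 99.9 and 91.0 in WT and 70.4 and 76.3 in KO. *Slc34a1*, a phosphate transporter and not 1 of the 3, was at 898 and 689 in WT and at 365 and 609 in KO. The list's summed FPKM, 6031 to 11127 in WT and 7113 to 11103 in KO, overlapped, and *Kap*, the most abundant of them, was at 8976 and 4387 in WT and 6038 and 9316 in KO. The sum of 5 podocyte markers was 52.5 to 55.4 in WT and 60.4 to 67.9 in KO, without overlap. *Podxl* made the largest part of it, and of the 5 markers 2 lay higher in each KO pool than in either WT pool, 1 lower, and 2 overlapped, beside the same 19.7% and 18.1%. The sum of 7 thick limb and distal tubule markers was 976 to 1383 in WT and 1147 to 1393 in KO. The sum of 8 macrophage markers was 184 and 457 in WT, with WT replicate 2 apart, and 216 to 225 in KO. Of these 8, 2, *C1qb* and *C1qc*, were lower in each KO pool than in either WT pool, beside 18.1% of all genes, and the median log2 fold change of the list was -0.65. The part of these cells in the keratin values was not tested.

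Of the 24 tested genes that anchor keratins or bind them (27 listed), 0 had an unadjusted p under 0.05. Both KO pools lay above both WT pools for 9 and below for 3, beside the 19.7% and 18.1% of all genes, and the median log2 fold change was 0.12. The 4 genes of lowest p, *Jup*, *Pkp3*, *Epcam* and *Cdh1*, were all higher in both KO pools than in either WT pool. *Jup*, the plakoglobin of desmosomes, was at 39.5 and 37.7 in WT and 42.4 and 48.7 in KO. *Pkp3*, a desmosomal plakophilin, was at 11.4 and 10.7 in WT and 12.3 and 13.4 in KO, and *Cdh1*, E-cadherin, at 61.1 and 62.0 in WT and 68.1 and 71.5 in KO. *Epcam*, an epithelial adhesion molecule, was at 50.5 and 41.3 in WT and 51.7 and 56.6 in KO. The log2 fold changes of *Jup*, *Pkp3*, *Epcam* and *Cdh1* were 0.23, 0.20, 0.24 and 0.18 (limma, adjusted p = 0.798, 0.798, 0.806 and 0.815). *Hspb1*, a small heat shock protein and one of the most abundant genes of the list, had the log2 fold change farthest from 0, at -0.39, with overlapping groups (59.6 and 99.0 in WT, 67.6 and 50.8 in KO).

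Of the 6 tested genes of other intermediate filament proteins (15 listed), none had groups without overlap. *Vim*, the filament protein of mesenchymal and dedifferentiated tubular cells, was at 27.3 and 51.6 in WT and at 33.5 and 51.3 in KO, so the replicates differed more than the groups. *Lmna*, of the nuclear lamina, was at 24.6 and 30.6 in WT and 30.2 and 35.8 in KO.

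Among 23 tested epithelial transcription factors (27 listed), 1 was higher and 1 lower at an unadjusted p under 0.05, shares near the 3.29% and 3.03% of all genes, and the median log2 fold change was -0.034. *Klf4*, a factor of epithelial differentiation, was at 7.33 and 8.05 in WT and 9.84 and 9.37 in KO, and *Atf3*, an early stress factor, at 6.79 and 11.3 in WT and 4.66 and 5.60 in KO. Their log2 fold changes were 0.31 and -0.72 (limma, adjusted p = 0.785 for each). *Cdx2*, an intestinal epithelial factor, was listed at 0 in all 4 libraries.

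Of the 22 tubular injury genes, 3 were higher and 1 lower in KO at an unadjusted p under 0.05, beside 3.29% and 3.03% of all genes. Both KO pools lay above both WT pools for 6 and below for 4, shares near the 19.7% and 18.1% of all genes. The median log2 fold change was 0.061. *Lcn2*, the injury marker NGAL, was at 133 and 95.2 in WT and at 249 and 273 in KO, and *Plin2*, a lipid droplet protein, at 78.4 and 66.5 in WT and 187 and 206 in KO. *Vcam1*, an adhesion molecule of poorly repaired tubules, was lower in both KO pools, at 14.6 and 31.0 in WT and 10.5 and 2.59 in KO. The adjusted p-values of *Lcn2* and *Plin2* were 0.613 and 0.466, and that of *Vcam1* 0.785, from limma.

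Genes with the nearest profiles were looked up among 7864 genes with a symbol whose mean FPKM reached 5, by the Euclidean distance between log2(FPKM + 0.5) values of the 4 pools after subtraction of the gene mean. Nearest to the mean profile of *Krt8* and *Krt18* were *Rps15*, *Rpsa-ps10*, *Dctpp1*, *Pgs1* and *Tbc1d22a*, at distances of 0.023 to 0.030, where the median candidate lay at 0.33. That profile is nearly flat, from -0.17 in WT replicate 1 to 0.12 in KO replicate 2. *Krt19*, *Krt23*, *Krt7*, *Krt10* and *Krt20* lay at distances of 0.13, 0.21, 0.37, 0.38 and 0.58 from it.

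Among the genes nearest to *Krt20* were *Pgp*, *Card19*, *Slc16a6* and *Plvap*, at distances of 0.17 to 0.20, where the median candidate lay at 0.75. *Pgp* codes for phosphoglycolate phosphatase and was at 49.3 and 45.7 in WT and 70.7 and 74.1 in KO. *Slc16a6*, a monocarboxylate transporter family gene, was at 5.25 and 4.90 in WT and 9.56 and 9.96 in KO. *Plvap*, a protein of endothelial diaphragms, was at 103 and 110 in WT and 161 and 152 in KO. With 4 pools, the likeness describes these libraries alone. *Rpsa-ps10* is a pseudogene that can share reads with *Rpsa*, so its value is uncertain.

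**Figure D4:**
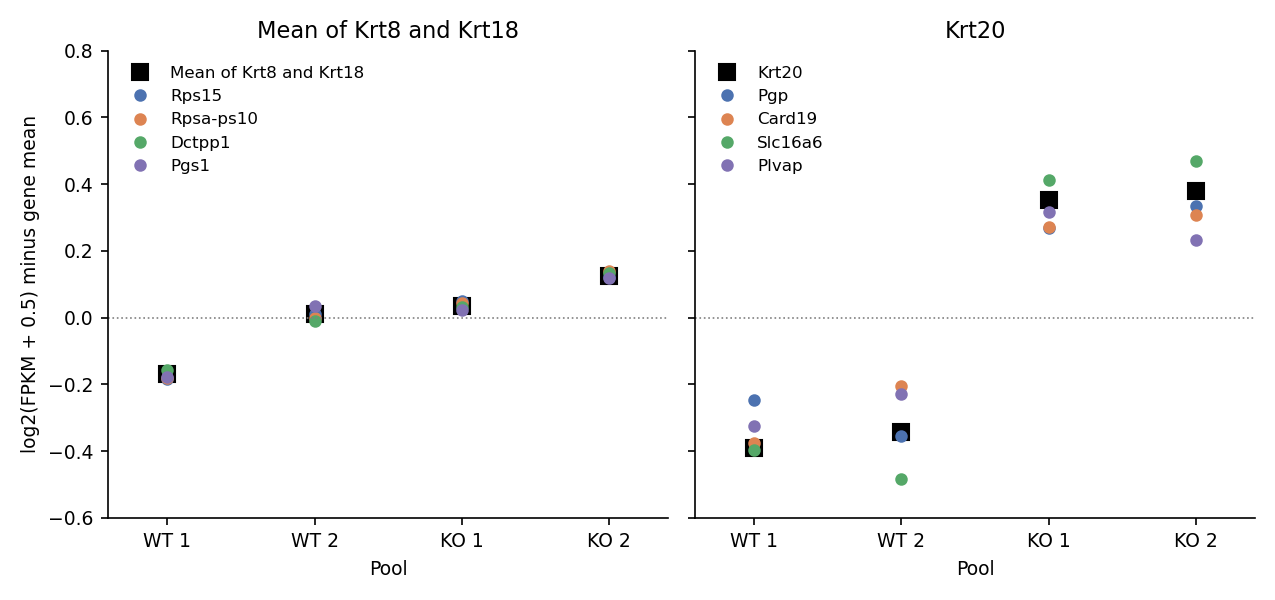
Log2(FPKM + 0.5) minus the gene mean in the 4 pools for the mean of *Krt8* and *Krt18* (left) and for *Krt20* (right), as black squares, and for 4 of the nearest genes of each as coloured circles. The left profile spans -0.17 to 0.12 with WT replicate 2 and KO replicate 1 close together, and the right one steps from -0.39 and -0.34 in WT to 0.35 and 0.38 in KO.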

How the data were processed

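The deposited file holds FPKM made by the authors, 1 row a gene, for 4 libraries of poly(A)-selected kidney RNA, with gene lengths and positions. The submitters' processing notes name HISAT2 2.0.5 and GRCm38.p6 (mm10), and the counting tool is not given in the sources used here. FPKM times length gave whole multiples of 1 read for 100% of nonzero values (tolerance 0.01 of a read). Counting errors assume independent reads.

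Groups were tested on log2(FPKM + 0.5) by limma 3.58.1 under R 4.3.3 (eBayes with trend, two-sided, no covariates). The fit held the 15414 genes whose mean FPKM reached 0.5, and p-values were adjusted over all of them (Benjamini-Hochberg). Calls used the study's threshold of an adjusted p under 0.05, but not its analysis, which did call genes at that threshold. The counts of genes past it given here belong to this fit and its alternatives. Fold changes on this scale understate those of low genes. The fit was tested on simulated data. Ratios were compared with exact permutation tests in scipy 1.17.1 (Python 3.11.15). No source says that the mice of the pools were kept or processed separately, so p-values measure the spread between pools.

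Named were the 7 members, keratins over the filter, genes of lowest p or highest level in each list, *Apela* and the 5 nearest profiles, of which 1 is not reported here. *Krt1*, *Krt6a*, *Krt14*, *Krt222*, *Krt8-ps*, *AC157583.2*, *Rpsa*, *Cdx2*, *Dsg3* and *Slc22a6* are named in addition where a count or level refers to them. Members and lists were chosen with earlier results of these data known. Alternatives comprised other pseudocounts (0.1, 1), other filters (none, 1), quantile normalization, voom weights on the recovered reads, no trend, the replicate block and each pool left out. TPM scaling, coding transcript lengths and the ratio without *Krt20* were added after the values were seen. The replicate numbers are shared but not stated to pair the pools.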

Additional observations from a re-analysis of the deposited data

How the results depend on the processing

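The number of genes past the threshold was 0 in the limma fit on FPKM and under all 13 alternatives, with 974 genes at an unadjusted p under 0.05 as reported and between 687 (without WT replicate 2) and 1720 (without WT replicate 1) under the alternatives. The number of keratin members past it was likewise 0 under each, and the unadjusted p of *Krt20* was under 0.05 throughout, from 0.000724 to 0.0146. *Krt23* joined it in the fit without a trend, at 0.0468. Of the 91 log2 fold changes of members under alternatives, 86 kept their direction and 5 did not. With quantile normalization *Krt8* became -0.023 and *Krt7* -0.016, and the cause was not tested. With TPM scaling, chosen after seeing the data, *Krt7* became -0.065. That scaling multiplies every gene of a library by the same factor and moved the median of all genes to -0.089. The change of sign of *Krt7* under it is counted among the 5 but is not particular to *Krt7*. With each pool left out in turn, *Krt7* ranged from -0.23 (without KO replicate 2) to 0.30 and *Krt10* from -0.33 to 0.15 (without KO replicate 1). The median over the members, 0.19 as reported, ranged from 0.074 (without WT replicate 1) to 0.30 (without KO replicate 1). *Krt8*, *Krt18*, *Krt19*, *Krt20* and *Krt23* kept their direction in these fits, in which a lone pool is assumed to vary like the other group.

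Same-numbered pools did not deviate together (correlation of deviations across genes -0.0017), which gave no ground to treat them as pairs. In the fit with the replicate block, 0 genes and 0 members passed the threshold, 932 genes had an unadjusted p under 0.05, and the members' log2 fold changes are the same by construction. The adjusted p of *Krt20* was 0.746 with the block (limma with Benjamini-Hochberg adjustment). As TPM, the mean summed level in KO was 1.09 times that in WT over all members (1.17 as deposited), 1.23 times over type I (1.33 as deposited) and 1.01 times over type II (1.09 as deposited), and the cause was not tested. The mean ratio of type II to type I differed by -0.426 with quantile normalization. It differed by -0.167 around a WT mean of 2.91 without *Krt20*, and by -0.134 around a WT mean of 3.44, with overlapping groups, for *Krt8* to *Krt18*, where the difference over all members was -0.349 around a WT mean of 1.89. Reads per pool were fewest for *Krt23* and *Krt10*, with 35 to 85, and counting error is largest for these.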
